A study of Mus musculus with 12 samples.

Results

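The 10 genes described here belong to the elastic fibre and to latent TGF-β storage, and they were followed in the RNA-seq of mouse scars. They were Eln, Fbn1, Fbn2, Mfap2, Mfap4, Mfap5, Fbln5, Ltbp1, Ltbp2 and Ltbp3, taken by symbol, and all 10 were found among the 35976 genes listed. All 10 also passed the filter on low counts that left 18853 genes to test. The 12 libraries came from 4 groups of 3 male mice aged 8 to 12 weeks on a C57BL/6 J background, namely Tem1WT/WT sham (WTSH), Tem1WT/WT traction (WTTR), Tem1lacZ/lacZ sham (lacZSH) and Tem1lacZ/lacZ traction (lacZTR). Tem1lacZ/lacZ mice lack Tem1 in all tissues and carry lacZ at its locus, so the line is a global knockout and says nothing of a single cell type. Every mouse, sham included, had a 1.5 cm wound on the back and carried the device from 6 days later. It was lengthened by 1 mm a day, up to 8 mm, in the traction groups and was left as it was in the sham groups. Bulk RNA of part of each scar was sequenced, so that fewer cells of a type and less RNA per cell cannot be told apart.

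Elastic fibres give skin its recoil. Fibrillin microfibrils, built of Fbn1 and Fbn2 and decorated by the microfibril-associated proteins, form a scaffold on which elastin is laid down with the help of fibulins and then cross-linked by lysyl oxidases. The latent TGF-β binding proteins hold the growth factor in its inactive complex and tether it to the same microfibrils, although Ltbp2 is the family member that does not bind latent TGF-β and is known instead for its place in microfibrils. Mature skin elastin turns over slowly, and scar tissue is known for few and disordered elastic fibres.

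The promoters of the Ltbp genes are shown because Ltbp2 was the only one of the 10 genes that passed edgeR's test in any comparison, while its relatives Ltbp1 and Ltbp3 did not. Each stretch was read from RefSeq on GRCm38.p6 and ends before the first annotated exon, and capitals mark matches on either strand to the TATA box spelled TATAAA, the GC box bound by Sp1 and spelled GGGCGG, the AP-1 site spelled TGACTCA, the TEAD site spelled GGAATG, and the SMAD box spelled GTCTG. No 2 of these matches overlapped.
Ltbp2, chr12:84876559-84876741, minus strand: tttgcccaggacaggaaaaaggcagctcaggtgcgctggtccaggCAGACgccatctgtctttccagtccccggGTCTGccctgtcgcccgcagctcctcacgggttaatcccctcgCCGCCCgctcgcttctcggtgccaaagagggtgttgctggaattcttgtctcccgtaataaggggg
Ltbp1, chr17:75005279-75005479, plus strand: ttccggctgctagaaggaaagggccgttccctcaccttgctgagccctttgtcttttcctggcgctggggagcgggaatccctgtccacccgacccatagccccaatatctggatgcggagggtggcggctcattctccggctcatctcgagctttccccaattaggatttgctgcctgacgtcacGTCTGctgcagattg
Ltbp3, chr19:5740650-5740899, plus strand: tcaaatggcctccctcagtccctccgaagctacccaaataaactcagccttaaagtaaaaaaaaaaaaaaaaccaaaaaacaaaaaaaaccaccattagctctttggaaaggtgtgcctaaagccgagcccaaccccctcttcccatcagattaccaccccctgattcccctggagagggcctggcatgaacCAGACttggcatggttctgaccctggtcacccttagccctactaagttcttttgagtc

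The Ltbp2 stretch of 183 bases held 2 SMAD boxes and 1 GC box, which 33.6% and 21.5% of 32851 mouse promoters held at least once in a window of that length. The 201 bases of Ltbp1 and the 250 bases of Ltbp3 held 1 SMAD box each, against 36% and 42.2% of promoters at those lengths. No TATA box, AP-1 or TEAD match was found in the 3 stretches, and these were held by 8.49% to 12.4%, 3.18% to 4.46% and 9.91% to 12.6% of promoters over the 3 lengths. GC bases made up 61.7% of the Ltbp2 stretch, 58.7% of that of Ltbp1 and 47.2% of that of Ltbp3.

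The libraries held between 41536788 and 64644293 counts. Levels below are CPM, counts scaled to library size, after TMM normalization. Cd248, the gene of Tem1, averaged 150 ± 38.3 CPM in WTSH and 209 ± 123 CPM in WTTR (SD, n = 3), and it had at most 13 counts in any Tem1lacZ/lacZ library, which matches the genotypes in the labels. The fibroblast markers, led by Col3a1, Col1a2 and Col1a1, summed to between 18438 and 114762 CPM in the 12 libraries and none of the 11 was at 0, but markers of hair follicle, keratinocytes, skeletal muscle and fat were present as well. The libraries WTTR 1 and WTTR 3 stood apart. WTTR 1 had a neutrophil marker sum of 7444 CPM, against 70.6 to 629 CPM in the 11 other libraries, and WTTR 3 had the highest fibroblast marker sum. Values without one or both of them in turn are given beside the called genes named below.

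Among the 10 genes, levels per length of exon spanned a wide range. In WTSH, Mfap4 had the highest level at 406 ± 121 CPM per kb, followed by Fbn1 at 98.6 ± 24.4 and Mfap2 at 71.1 ± 9.23 (SD, n = 3). Mfap5 (40.6 ± 16.7) and Eln (40.3 ± 11.4 CPM per kb) could not be ordered, and Fbln5 followed at 16.9 ± 4.10. Ltbp3 (9.41 ± 1.43) and Ltbp1 (8.06 ± 2.37 CPM per kb) overlapped, as did Fbn2 (3.86 ± 2.17) and Ltbp2 (1.85 ± 0.49), which closed the order. Ltbp2 stood in place 10 in WTSH, lacZSH and lacZTR and in place 8 in WTTR. Ltbp1 moved from place 8 in WTSH to 10 in WTTR. In WTTR, Ltbp2 had 12.5 ± 13.1 CPM per kb, from 3.89 to 27.6 with WTTR 1 the highest, and Ltbp1 had 5.61 ± 2.20. Their ranges overlapped, so these places in WTTR could not be ordered.

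**Figure D1:**
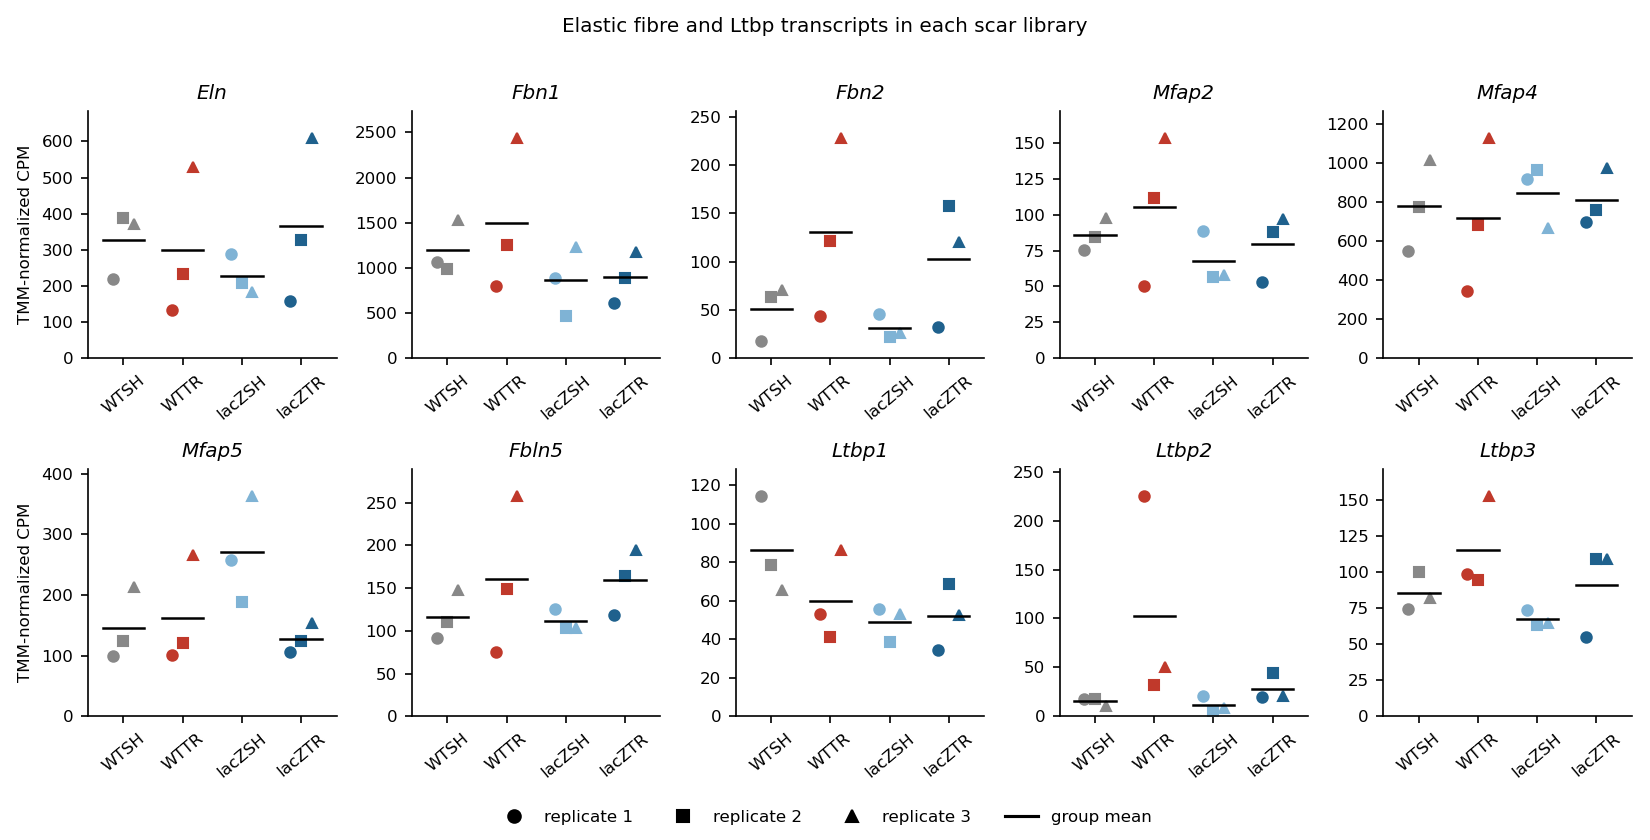
TMM-normalized CPM of the 10 genes in each of the 12 scar libraries (vertical axes start at 0, and each gene has its own scale), with groups on the horizontal axis, a marker for each replicate and a bar at the group mean. WTTR 3 is the highest of its group for 9 genes, and for Ltbp2 the highest is WTTR 1 at 226 CPM.

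Traction in Tem1WT/WT mice was compared with sham first, since it asks what tension on a healing wound does in mice that have Tem1. Ltbp2 was the only one of the 10 genes called at an adjusted p under 0.05, and it was higher with traction. Over all genes tested, 9.15% were called in this comparison and 5.61% were called as higher, so 1 of 10 is close to the background. The median log2 fold change of the 10 genes was 0.31, with 7 above 0 and 3 below, and that of all genes was -0.01.

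Ltbp2 (chr12:84783212-84876532, minus strand, GRCm38, as are all positions below) had 17.5, 17.4 and 10.6 CPM in WTSH and 226, 31.8 and 50.5 CPM in WTTR. The groups did not overlap, which was so for 35.7% of all genes, and WTTR 1 was far above the other libraries of its group. This gave a log2 fold change of 2.76 (SE 0.74, 95% interval 1.13 to 4.39), a 6.77-fold higher level, with an adjusted p of 0.0447 in edgeR's quasi-likelihood test. Without WTTR 1 the log2 fold change was 1.42 with an adjusted p of 0.126 in the same test, and the level in both remaining traction libraries was still above each sham library. The call held under 6 of 20 alternatives, with adjusted p-values from 0.00093 to 0.139, and with the replicate block it was 0.0539. The neutrophil markers S100a9, S100a8 and Csf3r averaged 1400.3, 475 and 430.0 CPM in WTTR against 28.3, 13.7 and 16.5 CPM in WTSH, and the part of these cells in the Ltbp2 result was not tested. In the exons of Ltbp2, 764 bases are shared with D030025P21Rik on the other strand, and Fbn1 shares 2442 bases with Gm9913, Eln 267, Ltbp3 182, Fbn2 129 and Mfap4 89 bases with antisense genes.

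In Tem1lacZ/lacZ scars Ltbp2 had 20.3, 5.39 and 8.48 CPM with sham and 19.4, 43.8 and 20.3 CPM with traction. Both groups overlapped, since lacZSH 1 was level with the lower traction libraries. Here the log2 fold change was 1.29 (SE 0.71, adjusted p = 0.645, edgeR), and it was 2.05 without lacZSH 1 and 0.81 without lacZTR 2. Between genotypes under traction it was -1.88 (SE 0.72, adjusted p = 0.139, edgeR), and lacZTR and WTTR overlapped between 31.8 and 43.8 CPM. DESeq2 gave -1.91 for this difference with an adjusted p of 0.0411, in a fit that called 2309 genes in place of 20. Without WTTR 1 the same edgeR difference was -0.53. The interaction, which tests the difference of both traction effects, was -1.47 (SE 0.99, adjusted p = 0.638, edgeR), so that a smaller effect in Tem1lacZ/lacZ mice was not shown. Without WTTR 1 the interaction was -0.10, and without lacZSH 1 it was -0.72.

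Ltbp1 (chr17:75005568-75392512, plus strand), which carries latent TGF-β into the matrix, had 115, 78.3 and 65.6 CPM in WTSH and 52.8, 40.8 and 86.2 CPM in WTTR. WTTR 3 lay within the sham range and the other traction libraries below it. Its log2 fold change was -0.52 (SE 0.33, adjusted p = 0.296, edgeR), and it stayed below 0 in all 20 alternatives, from -0.87 to -0.27. In lacZSH it had 55.7, 38.3 and 52.9 CPM, below every WTSH library, and in lacZTR 34.4, 68.7 and 52.7 CPM. The sham difference between genotypes was -0.82 (SE 0.33), with an unadjusted p of 0.0301 and an adjusted p of 0.409 in edgeR's quasi-likelihood test.

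Ltbp3 (chr19:5740904-5758532, plus strand), the other member that binds latent TGF-β, had 74.6, 99.7 and 81.7 CPM in WTSH and 98.7, 94.6 and 153 CPM in WTTR. The log2 fold change with traction was 0.44 (SE 0.27) in both genotypes, with adjusted p-values of 0.285 and 0.664 in edgeR. Its lacZSH libraries (74.0, 63.4 and 64.5 CPM) lay just below those of WTSH, with a log2 fold change of -0.34 and an adjusted p of 0.609. In lacZTR it had 55.0, 109 and 109 CPM.

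Elastin itself did not pass the test in any comparison. Eln (chr5:134702593-134747323, minus strand) had 220.4, 388 and 372 CPM in WTSH and 134, 233 and 530.2 CPM in WTTR, so the traction libraries spread on both sides of the sham range. The log2 fold change was -0.13 (SE 0.53, 95% interval -1.30 to 1.04, adjusted p = 0.892, edgeR), an interval that includes a log2 change of 1 in either direction. In Tem1lacZ/lacZ scars it had 289.7, 208 and 183 CPM with sham and 159.8, 328 and 611 CPM with traction, and the log2 fold change was 0.69 (SE 0.53, adjusted p = 0.723), or 0.10 without lacZTR 3. The interaction of 0.82 had an SE of 0.75. Within both traction groups replicate 1 was the lowest and replicate 3 the highest, with a 3.97-fold range in WTTR and a 3.82-fold range in lacZTR, against 1.76-fold in WTSH and 1.59-fold in lacZSH.

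Fbn1 (chr2:125300594-125507993, minus strand), the main fibrillin of adult microfibrils, had the highest mean CPM of the 10 in each group, although in lacZSH 1, lacZSH 2 and lacZTR 1 Mfap4 was higher and in lacZSH their means could not be ordered. It had 1063, 989 and 1535 CPM in WTSH and 804, 1249.8 and 2442 CPM in WTTR, with WTTR 1 below and WTTR 3 above all sham libraries. Its log2 fold change was 0.33 (SE 0.44, adjusted p = 0.651, edgeR) and turned to -0.22 without WTTR 3. It had 889, 467 and 1234 CPM in lacZSH and 613, 891 and 1181 CPM in lacZTR, a log2 fold change of 0.05 (SE 0.44). Between genotypes under traction the value was -0.74 (SE 0.45, adjusted p = 0.308).

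Fbn2, the fibrillin best known from development and repair, had the largest traction difference after Ltbp2 in Tem1WT/WT scars. It had 18.2, 63.7 and 71.0 CPM in WTSH and 43.4, 121 and 228 CPM in WTTR. In Tem1lacZ/lacZ scars it had 45.8, 22.5 and 26.2 CPM with sham and 32.0, 158 and 120.2 CPM with traction. In both genotypes the traction library with the lowest level lay inside the sham range and the others above it. The log2 fold change was 1.36 (SE 0.70, adjusted p = 0.210, edgeR) in Tem1WT/WT and 1.71 (SE 0.71, unadjusted p = 0.0348, adjusted p = 0.599) in Tem1lacZ/lacZ, and it was above 0 in every alternative of both comparisons. Without WTTR 3 the Tem1WT/WT value was 0.69, and without lacZTR 2 the Tem1lacZ/lacZ value was 1.28. The interaction was 0.35 (SE 0.98).

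Among the microfibril-associated genes, Mfap5 (chr6:122505845-122529290, plus strand) had its largest differences in the Tem1lacZ/lacZ scars. It had 258, 189 and 364 CPM in lacZSH and 105, 124 and 153 CPM in lacZTR, and these groups did not overlap. This was a log2 fold change of -1.08 (SE 0.40), with an unadjusted p of 0.0207 and an adjusted p of 0.598 in edgeR's quasi-likelihood test. In Tem1WT/WT scars it had 99.8, 124 and 213 CPM with sham and 101, 120.1 and 265 CPM with traction, a log2 fold change of 0.16 (SE 0.40), and both groups overlapped. The sham difference between genotypes was 0.89 (SE 0.40, adjusted p = 0.427), and the interaction was -1.24 (SE 0.56, unadjusted p = 0.0503, adjusted p = 0.555, edgeR). Without WTTR 3 the interaction was -0.66.

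Mfap2 and Mfap4 passed no test. Mfap2 (chr4:141010418-141015984, plus strand), which binds fibrillin, had a mean of 86.1 ± 11.2 CPM in WTSH, 105 ± 51.7 in WTTR, 68.0 ± 18.1 in lacZSH and 79.3 ± 23.3 in lacZTR (SD, n = 3). Its traction log2 fold changes of 0.29 and 0.22 had an SE of 0.36. Mfap4 (chr11:61485431-61488900, plus strand), a microfibril glycoprotein that binds elastin, had means of 781 ± 233, 719.6 ± 394, 849.8 ± 161 and 812 ± 147 CPM in the same order, and its 95% intervals ran from -0.94 to 0.71 in Tem1WT/WT and from -0.89 to 0.76 in Tem1lacZ/lacZ. Fbln5 (chr12:101746565-101819055, minus strand), which guides elastin onto microfibrils, averaged 117 ± 28.3 and 161 ± 92.1 CPM in WTSH and WTTR and 111 ± 12.9 and 159 ± 38.4 CPM in lacZSH and lacZTR. Its log2 fold changes were 0.46 and 0.52 (SE 0.37 in both), and neither passed the test.

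**Figure D2:**
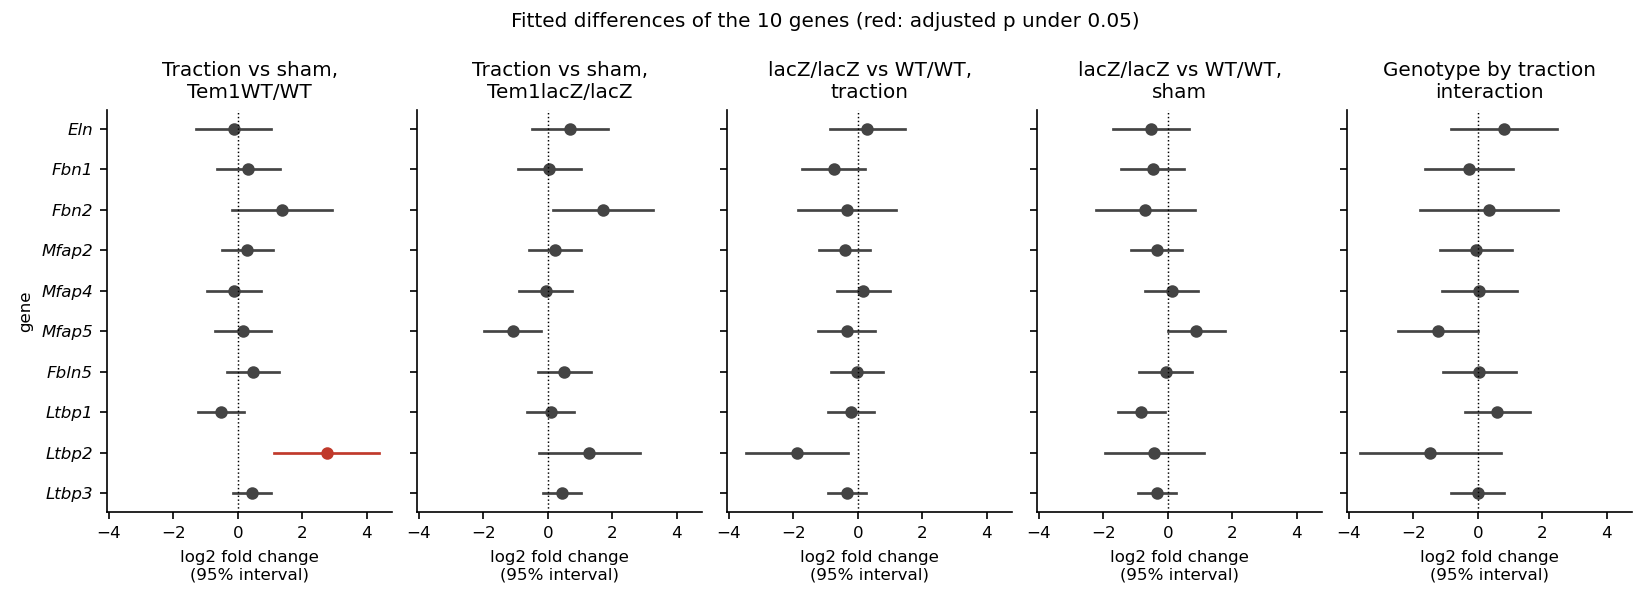
Fitted log2 fold changes (horizontal axis) of the 10 genes with 95% intervals in the 5 comparisons, with traction minus sham, Tem1lacZ/lacZ minus Tem1WT/WT, and the traction effect of Tem1lacZ/lacZ minus that of Tem1WT/WT. One point, Ltbp2 with traction in Tem1WT/WT, is red for an adjusted p under 0.05.

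By comparison, 0 of the 10 genes were called with traction in Tem1lacZ/lacZ scars by edgeR, DESeq2 or limma-voom, where edgeR called 0% of all genes. At an unadjusted p under 0.05 there were 2 (Fbn2 higher and Mfap5 lower), against 8.12% of all genes, and 1 of 10 did not overlap between groups, against 12.9%. The median log2 fold change was 0.33.

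Between genotypes under traction edgeR called 0 of 10 and 0.106% of all genes, limma-voom called 0 and DESeq2 called 1, Ltbp2. At an unadjusted p under 0.05 there was 1, Ltbp2, against 26.1% of all genes. None of the 10 was apart between groups, against 26.6% of all genes. The median was -0.34, with 8 of 10 below 0, and it was 0.19 without WTTR 3. This comparison shares the WTTR libraries with the traction comparison in Tem1WT/WT.

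Between genotypes with sham 0 of 10 were called by edgeR, DESeq2 or limma-voom, beside 0.0106% of all genes in edgeR. At an unadjusted p under 0.05 there were 2 (Mfap5 higher and Ltbp1 lower), against 11.7%, and 2 were apart (Ltbp1 and Ltbp3, both lower in Tem1lacZ/lacZ), against 26.8%. The median was -0.38. In the interaction 0 of 10 were called by the 3 tools, beside 0% of all genes in edgeR, and 0 had an unadjusted p under 0.05, against 8.91%.

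The genes that assemble elastic fibres and release TGF-β were followed in 4 lists of 72 genes, of which 71 were in the files and 67 were tested. The lists were chosen with earlier results of these data known, so their counts are a description and no test against all genes. With traction in Tem1WT/WT scars 25 of these 67 were called as higher and 0 as lower. Over all genes 9.15% were called in that comparison and 5.61% were called as higher. Log2 fold changes were above 0 for 57 of the 67 and below 0 for 10. Between groups 37 did not overlap, against 35.7% of all genes. The median log2 fold change of the 67 was 0.79, above the 0.31 of the 10 structural genes, a difference that was not tested. The count of calls depended on single libraries, both in the lists and over all genes. In the lists it was 13 without WTTR 1, 14 without WTTR 3, 15 without WTSH 3 and 8 without lacZSH 3. The same fits called 360 of 19388, 704 of 19430, 820 of 19436 and 169 of 19366 genes. It was 0 without WTSH 1, without WTSH 2 or with only the 6 libraries compared, fits that called 0 of all genes.

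Of the genes of assembly and cross-linking, 9 of 27 were called as higher, against 5.61% of all genes. Emilin1, a glycoprotein at the border of elastin and microfibrils, had 37.4, 58.3 and 55.3 CPM in WTSH and 298, 209 and 286 CPM in WTTR. Its log2 fold change was 2.39 (SE 0.33, adjusted p = 0.0184, edgeR). Loxl3, a lysyl oxidase-like enzyme, rose by 2.16 on the log2 scale, and Efemp2, the fibulin 4 that brings lysyl oxidase to elastin, by 1.70 (SE 0.34, adjusted p = 0.0288). Lox, the enzyme that cross-links elastin and collagen, had 282, 260.0 and 360.1 CPM in WTSH and 768, 864 and 1117 CPM in WTTR, a log2 fold change of 1.61 (SE 0.36, adjusted p = 0.0329). Loxl1, the lysyl oxidase most tied to elastin upkeep, had a log2 fold change of 1.13 with an adjusted p of 0.0867, and its groups did not overlap. Emilin1 and Loxl3 were also called without WTTR 1 (2.27 and 2.25) and without WTTR 3 (2.34 and 1.94). Lox was called under neither (1.70, adjusted p = 0.0515, and 1.44, adjusted p = 0.0676), and Efemp2 was called without WTTR 1 (1.75) but not without WTTR 3 (1.56, adjusted p = 0.0517).

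The elastases and their inhibitors had 5 of 11 tested genes called as higher, on both sides of the balance, against 5.61% of all genes. Mmp9, a gelatinase that also cuts elastin and is abundant in neutrophils, rose by 4.17 on the log2 scale, and Slpi and Timp1, inhibitors of neutrophil elastase and of metalloproteinases, rose by 4.30 and 3.01. WTTR 1 had the highest value of each, 757 CPM for Mmp9, 147 CPM for Slpi and 547 CPM for Timp1, and it was also the library with the highest neutrophil marker sum. Without WTTR 1 the log2 fold changes were 2.89 for Mmp9, which was still called (adjusted p = 0.0344, edgeR), 2.48 for Slpi (adjusted p = 0.0542) and 1.97 for Timp1 (adjusted p = 0.0844). Without WTTR 3 the values were 4.55 for Mmp9, 4.72 for Slpi and 3.31 for Timp1, all called (adjusted p = 0.0200, 0.0365 and 0.0495, edgeR). Elane, Mmp7 and Serpina1a did not pass the filter on low counts.

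For TGF-β itself, 6 of 17 genes of ligands, latency and activation were called as higher, against 5.61% of all genes. Thbs1, the thrombospondin that can activate latent TGF-β, rose by 2.93 on the log2 scale, and Furin, which cuts its precursor, by 1.72. Tgfb1 had 31.4, 33.2 and 42.7 CPM in WTSH and 188, 72.9 and 83.2 CPM in WTTR, with a log2 fold change of 1.68 (SE 0.39, adjusted p = 0.0334, edgeR). Tgfb3 (0.91, adjusted p = 0.0505) and Tgfb2 (0.61, adjusted p = 0.184) did not pass the test. WTTR 1 was the highest library for Thbs1, Furin and Tgfb1. Without it the log2 fold changes were 2.14 for Thbs1 (adjusted p = 0.0385, edgeR), 1.08 for Furin (adjusted p = 0.0525) and 1.11 for Tgfb1 (adjusted p = 0.0676), so that of these only Thbs1 was still called. Tgfb3 was called without WTTR 1 (1.11, adjusted p = 0.0460) but not without WTTR 3 (0.57, adjusted p = 0.145, edgeR). Without WTTR 3 the values were 3.22 for Thbs1, 1.90 for Furin and 1.88 for Tgfb1, all called (adjusted p = 0.0236, 0.0422 and 0.0439, edgeR). Ltbp4, the family member tied to Fbln5 and elastin, had a log2 fold change of -0.16 (SE 0.29, adjusted p = 0.740).

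Of receptors and direct targets of TGF-β, 5 of 12 were called as higher, against 5.61% of all genes. Among them were Tgfbi, a matrix protein named for its induction by TGF-β, with a log2 fold change of 1.59 and the co-receptor Eng with 1.47. Without WTTR 1 neither was called (1.01, adjusted p = 0.0551, and 1.30, adjusted p = 0.0554, edgeR). Without WTTR 3 Tgfbi was called (1.80, adjusted p = 0.0365) and Eng was not (1.37, adjusted p = 0.0581, edgeR). The endothelial markers, led by Pecam1 and Cdh5, were above 0 for 7 of 8 in the same comparison, with 5 called and 7 apart. They had sums of 854 to 1020.1 CPM in WTTR and 356 to 519 CPM in WTSH. The fibroblast markers were above 0 for 8 of 11, with 2 called and 5 apart. Their sums were 45500.1 to 114762 CPM in WTTR and 26973 to 43054 CPM in WTSH, made up mostly of Col3a1, Col1a2 and Col1a1. The 3 fibroblast markers below 0 were Dcn, Dpt and Fap. Their means were 2756, 463 and 39.2 CPM in WTTR against 2931, 602 and 47.5 CPM in WTSH. The hair follicle markers were below 0 for 8 of 8, with 3 called as lower, 8 apart and a median log2 fold change of -1.79, and skeletal muscle (median -2.91) and adipocyte markers (median -1.47) were below 0 for 8 of 8 with none called. The neutrophil markers were above 0 for 8 of the 8 tested, with 5 called, 4 apart and a median of 4.78. Over all genes 9.15% were called in this comparison and 35.7% were apart. The part of all these cell types in the list counts was not tested.

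**Figure D3:**
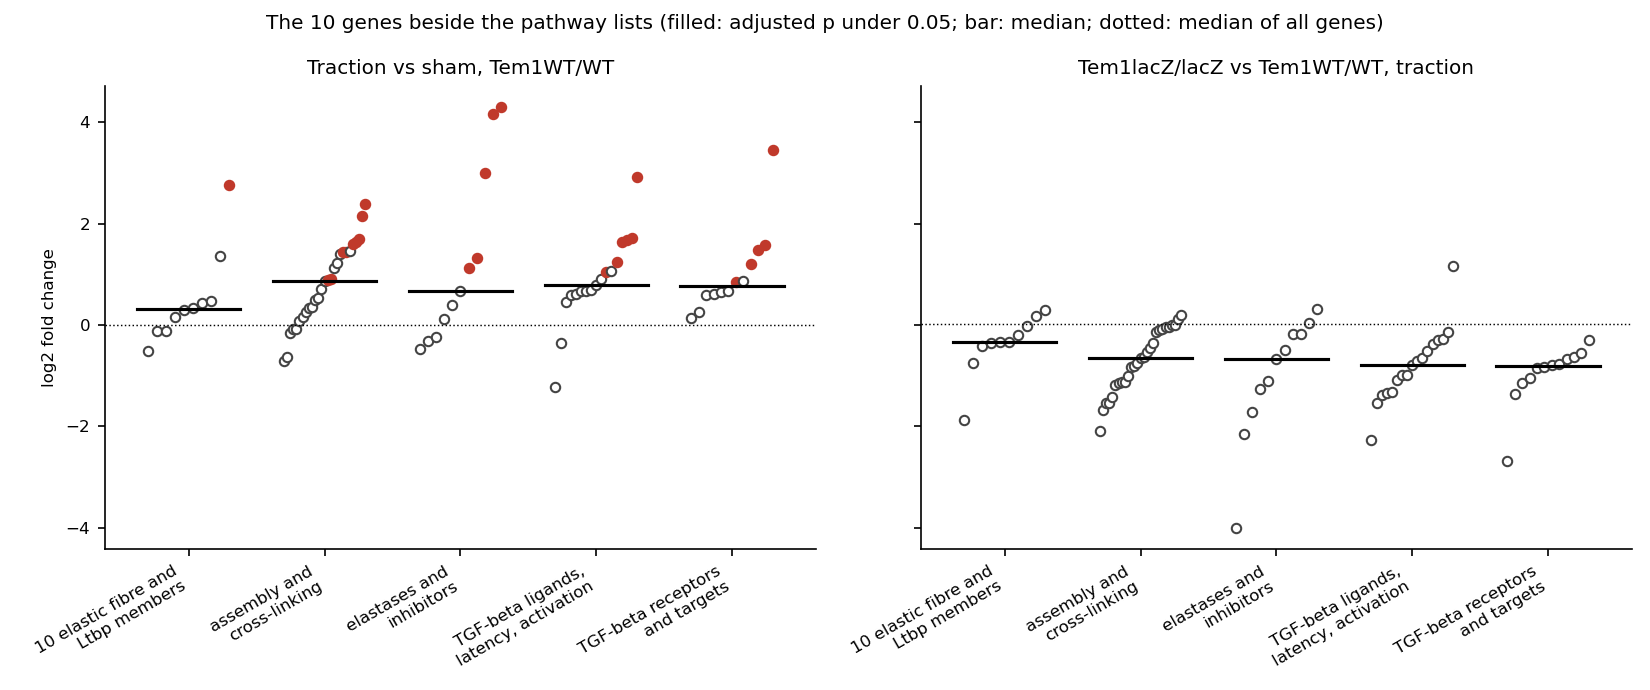
Log2 fold changes (vertical axis) of the 10 genes and of 4 lists of their partners, for traction against sham in Tem1WT/WT on the left and Tem1lacZ/lacZ against Tem1WT/WT under traction on the right. Filled points have an adjusted p under 0.05, bars are medians and the dotted line is the median of all genes. On the left 1 of 10 and 25 of 67 points are filled, against 9.15% of all genes called, and on the right none. The lists were chosen with earlier results of these data known.

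In the other comparisons the partner lists had no call in edgeR's quasi-likelihood test. With traction in Tem1lacZ/lacZ scars 0 of 67 were called by edgeR, 1 by DESeq2 and 9 by limma-voom. Of all 18853 genes these tools called 0, 23 and 377. At an unadjusted p under 0.05 there were 16 of the 67 (14 higher), against 8.12% of all genes. Of the 67, 12 did not overlap between groups, against 12.9% of all genes. Emilin1 had 35.1, 24.2 and 34.1 CPM in lacZSH and 47.4, 122 and 77.8 CPM in lacZTR, with a log2 fold change of 1.40 (SE 0.32, adjusted p = 0.598, edgeR). Its groups did not overlap, nor did those of Tgfb1 (1.07) and Tgfb3 (0.91), whose adjusted p was 0.598 as well.

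Between genotypes under traction 0 of 67 were called by edgeR, 0 by limma-voom and 29 by DESeq2. Of all 18853 genes these tools called 20, 16 and 2309. At an unadjusted p under 0.05 there were 42, of which 41 were lower in Tem1lacZ/lacZ, against 26.1% of all genes in either direction, and the median log2 fold change was -0.78. Groups were apart for 35 of 67, against 26.6% of all genes. This comparison uses the same WTTR libraries in which 25 of the 67 were called as higher than in WTSH, so the 2 comparisons are not independent. The hair follicle markers were higher in Tem1lacZ/lacZ for 8 of 8, all apart (median 1.17). The fibroblast markers were below 0 for 10 of 11 with 3 apart (median -0.96) and the endothelial for 8 of 8 with 6 apart (median -0.53). The neutrophil markers were below 0 for 8 of 8 with 0 apart (median -2.79). The neutrophil sums were 294 to 7444 CPM in WTTR, highest in WTTR 1, and 263 to 550 CPM in lacZTR. None of these markers was called, and their part in the partner counts was not tested. Emilin1 (-1.68, adjusted p = 0.0829), Efemp2 (-1.13, adjusted p = 0.0982), Tgfb1 (-1.35, adjusted p = 0.0952) and Lox (-0.83, adjusted p = 0.167) were lower in every lacZTR library than in any of WTTR. Without WTTR 2, edgeR called 20 of the 67, in a fit that called 1421 of all 19400 genes tested. With sham 0 were called by edgeR and 7 had an unadjusted p under 0.05, against 11.7% of all genes. In the interaction 0 were called by edgeR and 3 by DESeq2, which called 69 of all genes. An unadjusted p under 0.05 was found for 16 of the 67, against 8.91% of all genes.

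Ratios of counts between partners within a library do not depend on how libraries are scaled to each other. These were chosen after the values had been seen and carry no test. Lox had 1.28, 0.67 and 0.97 counts per Eln count in WTSH and 5.75, 3.71 and 2.11 in WTTR, so that the groups were apart. The ratio was 0.72, 0.91 and 1.74 in lacZSH and 1.60, 2.30 and 0.88 in lacZTR, which overlapped. Emilin1 had 0.0351 to 0.0589 counts per Fbn1 count in WTSH, 0.117 to 0.371 in WTTR, 0.0276 to 0.0518 in lacZSH and 0.0658 to 0.137 in lacZTR. Each traction group was above its sham group.

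Within the TGF-β store, Tgfb1 had 0.275 to 0.651 counts per Ltbp1 count in WTSH and 0.965 to 3.56 in WTTR. The range was 0.411 to 0.463 in lacZSH and 0.737 to 1.11 in lacZTR. Ltbp2 had 0.153 to 0.222 counts per Ltbp1 count in WTSH against 0.586 to 4.27 in WTTR, and 0.141 to 0.364 in lacZSH against 0.385 to 0.638 in lacZTR. In both ratios the traction groups lay above the sham groups of the same genotype, with WTTR 1 the highest library.

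**Figure D4:**
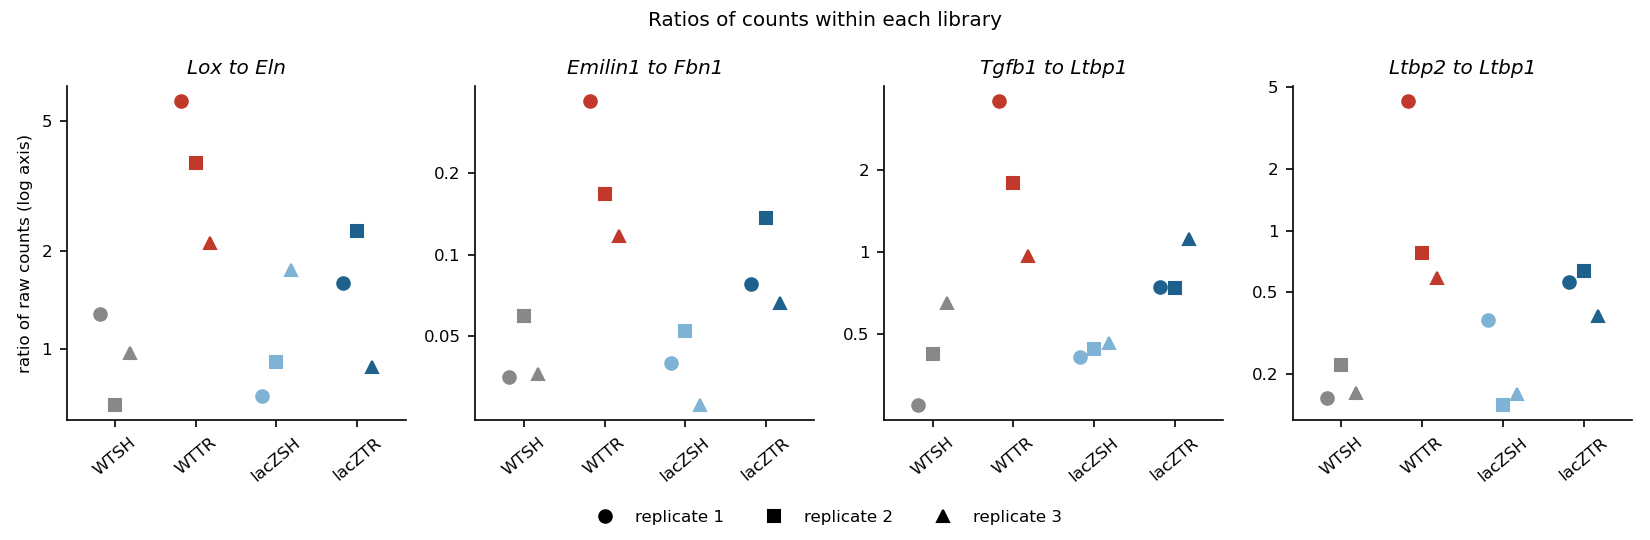
Ratio of raw counts of 2 genes in each library (logarithmic vertical axes, each with its own scale), by group, with a marker for each replicate. Lox to Eln is at least 2.11 in WTTR and at most 1.28 in WTSH, and Ltbp2 to Ltbp1 is highest in WTTR 1 at 4.27.

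Most of the 10 genes were high in the same libraries, with Ltbp2 the least so. Over the 12 libraries, which share their scaling and their mix of cells, 40 of the 45 pairs had a Pearson correlation of log2 CPM above 0, with the highest for Fbn2 and Ltbp3 (r = 0.85). The correlation of a gene with the mean of the 9 others was highest for Mfap2 (r = 0.91) and lowest for Mfap5 (0.21) and Ltbp2 (0.05). Mfap4 and Ltbp2 had the lowest pair value at -0.56. With group means taken out, Mfap5 followed Fbn1 (r = 0.92), Fbln5 (0.79) and Eln (0.68), whereas the pairs of Ltbp2 ran from -0.58 to 0.39. Over the 12 libraries Ltbp2 correlated with the neutrophil markers at r = 0.79, the endothelial at 0.73, the fibroblast at 0.60, the smooth muscle and pericyte at 0.11 and the hair follicle markers at -0.69. WTTR 1 was far above every other library for Ltbp2 (log2 CPM 7.82, elsewhere at most 5.66). It was so too for the neutrophil markers (mean log2 CPM 7.84, elsewhere at most 4.48). The correlations of Ltbp2 without WTTR 1 were not computed. Mfap2 had -0.32 with the neutrophil and 0.86 with the smooth muscle and pericyte markers. The genes whose profile over the 12 libraries was most like the mean of the 10 were Tkfc (r = 0.94), Zc3hav1l, Tspan18, Galnt16 and Gnas, out of 13635 candidates.

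Library by library, the 10 genes took between 0.166% (WTTR 1) and 0.476% (WTTR 3) of all counts, so the extremes fell in the same group. Their summed level was 2889 ± 657 CPM in WTSH, 3355 ± 1743 in WTTR, 2548 ± 374 in lacZSH and 2713 ± 815 in lacZTR (SD, n = 3), and the groups overlapped.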

How the data were processed

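RNA of 12 mouse scars was sequenced from stranded poly(A) libraries. The authors trimmed the reads with fastp 0.20.0, aligned them to GRCm38 with HISAT2 2.1.0 and counted them with featureCounts 2.0.0, and deposited raw counts per gene. The strand setting of the counting is not given in the sources used here, so genes that overlap on the other strand are uncertain. Analyses ran in R 4.3.3. In edgeR 4.0.16, filterByExpr removed low counts, TMM set the library sizes, and 1 quasi-likelihood model (robust) took all 4 groups, with 8 residual degrees of freedom. P-values were two-sided and adjusted by Benjamini-Hochberg over all 18853 genes. P-values rest on the spread between the 3 mice within each of the 4 groups, not only those compared, with information shared between genes. Alternatives used other filters, scalings, DESeq2 1.42.0, limma 3.58.1 (voom), the replicate block, 6 libraries, or left out a library. The tests were first run on simulated counts. These held no library set apart from its group, so that run does not cover libraries such as WTTR 1.

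Coordinates and exon lengths came from GENCODE vM21 and promoters from RefSeq, which matched 6 of the 10 genes. The 10 genes and all lists were chosen with earlier results of these data known, and Ccn2 was taken under its symbol Ctgf in the files. Named were the 10 genes, Cd248, up to 3 called genes per list and direction with the largest change, 8 fixed partners (Ltbp4, Efemp2, Emilin1, Lox, Loxl1, Tgfb1, Tgfb2, Tgfb3), the 5 most alike genes and the 3 highest cell type markers. One gene that this rule names is not reported here. Same-numbered libraries came from different mice, and the authors' labels do not pair them.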

Additional observations from a re-analysis of the deposited data

How the results depend on the processing

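With traction in Tem1WT/WT, the count of the 10 genes called was 0 in place of 1 with all genes with at least 1 count, with limma-voom, with only the 6 libraries compared and with the replicate block, and 0 to 1 when a library was left out. Over all genes 0 were called with only the 6 libraries compared and 0 to 2861 when a library was left out. The count in the partner lists was 0 with only the 6 libraries compared and 0 to 31 when a library was left out. With traction in Tem1lacZ/lacZ it was 1 with DESeq2, 9 with limma-voom and 0 to 2 when a library was left out, in place of 0. Between genotypes under traction DESeq2 called 1 of the 10 genes, and the partner count of 0 became 29 with DESeq2, 1 with DESeq2 size factors, 1 with all genes with at least 1 count and 0 to 20 when a library was left out. In the interaction DESeq2 called 3 partners. The causes were not tested. Over all genes 377 were called by limma-voom with traction in Tem1lacZ/lacZ. Between genotypes under traction 2309 of all genes were called by DESeq2, and 1421 by edgeR without WTTR 2.

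Directions with traction in Tem1WT/WT turned for genes near 0. Mfap5 was -0.023 with limma-voom. With a library left out, log2 fold changes ran from -0.83 to 0.20 for Eln, -0.22 to 0.60 for Fbn1, -0.087 to 0.60 for Mfap2, -0.60 to 0.19 for Mfap4, -0.39 to 0.54 for Mfap5, -0.053 to 0.78 for Fbln5 and -0.57 to 0.027 for Ltbp4. The values below 0 for Fbn1, Mfap2, Mfap5 and Fbln5 came without WTTR 3, in which the median of the 10 was -0.15, and for Mfap5 also without WTSH 1 (-0.056). Upper quartile scaling moved the median of all genes to -0.12 with traction in Tem1WT/WT and to 0.14 between genotypes under traction, and the median of the 10 in the first to 0.20.

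Deviations of same-numbered libraries from their group means correlated at -0.32 to 0.25. With so few mice per group, these values cannot decide whether same-numbered libraries were handled together, and that was not tested. With traction in Tem1WT/WT the replicate block gave a partner count of 29 in place of 25, and 1467 of all genes in place of 1725. It changed no call among the 10 genes other than Ltbp2 (2.44, adjusted p = 0.0539, edgeR).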
